A study of Mus musculus with 2 samples.

Results

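The 39 genes described here encode the unfolded protein response and the integrated stress response, which cells switch on when proteins misfold in the endoplasmic reticulum (ER) or when translation has to be slowed. They were chosen by name, with earlier results of these data known. Their values come from the non-control spots of both arrays whose gene name equals a member of the list, with 1 value per gene from its brightest probe. All 39 were on the array, among 27370 gene names in all, and 38 of them were well above background on both arrays. Genes of serine synthesis, tRNA synthetases and amino acid transporters, which the same response controls, were left out of the list.

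The samples were leukemia-initiating cells of female mice with acute myeloid leukaemia, Jam3-null cells on 1 array and WT cells on the other, and each label names 3 mice. Cells of both genotypes carried the MLL-AF9 fusion with a YFP reporter and were sorted from bone marrow as positive for YFP, Mac-1 and c-Kit. The age of the mice, how Jam3 was deleted and how the material of the mice was combined are not given in the sources used here. Since each genotype has a single array, the differences below have no replicates and no test, and this number of arrays sets their precision.

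Values are processed fluorescence signals in the scanner's arbitrary units, and a difference is the log2 value of Jam3-null cells less that of WT cells, each array being scaled to its 75th percentile. The scanner software's error model gave a standard deviation (SD) of the log2 difference between 0.20 and 0.22 for the 38 genes. This SD covers the measurement of the spot only and does not cover how leukaemias or animals vary. The share of non-control spots well above background was 55.0% for Jam3-null cells and 61.8% for WT cells. Neither array had Jam3 well above background at any of its 2 probes, so Jam3 does not check the genotypes, which are those of the labels. Itgam, which encodes the Mac-1 chain of the sort, had a log2 difference of 3.71, and Kit, the other sort marker, one of 0.09.

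In the unfolded protein response, 3 sensors sit in the ER membrane. IRE1 (encoded by Ern1) splices the mRNA of Xbp1 into the form that encodes an active transcription factor, PERK (Eif2ak3) phosphorylates the translation factor eIF2 alpha (Eif2s1), and ATF6 is cut in the Golgi to release a transcription factor. Phosphorylated eIF2 alpha lowers translation in general but lets Atf4 be translated, and other kinases such as GCN2 (Eif2ak4), which senses amino acid shortage, reach the same point. Much of this signalling acts on mRNA splicing, protein cleavage and phosphorylation, which an expression array does not read. In myeloid cells XBP1 is known for its part in secretory cell types such as eosinophils and dendritic cells.

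The genes are known to be switched on through short promoter elements, and these are shown first. The ER stress response element (ERSE) is CCAAT, any 9 bases and CCACG, and is bound by ATF6 together with NF-Y. ERSE-II is ATTGG, any base and CCACG, the UPRE searched was TGACGTGG, and the C/EBP-ATF response element (CARE), bound by ATF4 with C/EBP partners, was searched as TGATG, any base and AA. Both strands of the 250 bases before each gene start were read from RefSeq promoter sequences (GRCm38.p6), in which 34 of the 39 genes were found. ERSE was present in 9 of these 34 genes (26.5%), against 35 of all 27025 genes with a promoter sequence (0.13%). The genes were listed as members of a response known to work through such elements, so a higher share among them is no result of these data. In the following stretches the ERSE is in capitals, read on the strand on which CCAAT comes first.
Hspa5, chr2:34772005-34772063, plus strand: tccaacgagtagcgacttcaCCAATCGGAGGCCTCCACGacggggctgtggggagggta
Hsp90b1, far element, chr10:86705618-86705676, minus strand: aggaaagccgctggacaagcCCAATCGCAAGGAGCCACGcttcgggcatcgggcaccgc
Hsp90b1, near element, chr10:86705513-86705571, plus strand: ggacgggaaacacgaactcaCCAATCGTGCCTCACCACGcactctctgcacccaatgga
Calr, chr8:84847055-84847113, plus strand: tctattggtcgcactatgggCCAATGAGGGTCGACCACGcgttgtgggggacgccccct
Canx, chr11:50325780-50325838, minus strand: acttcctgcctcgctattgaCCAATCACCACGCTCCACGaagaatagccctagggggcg
Pdia6, chr12:17266471-17266529, plus strand: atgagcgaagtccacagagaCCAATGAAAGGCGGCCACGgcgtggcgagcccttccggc
Dnajc3, chr14:118937807-118937865, plus strand: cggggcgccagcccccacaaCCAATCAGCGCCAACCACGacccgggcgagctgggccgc
Creld2, chr15:88819500-88819558, minus strand: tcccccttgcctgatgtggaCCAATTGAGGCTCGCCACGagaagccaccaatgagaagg
Derl3, chr10:75893222-75893280, minus strand: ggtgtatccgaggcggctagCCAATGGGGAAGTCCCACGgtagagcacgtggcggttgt
Syvn1, chr19:6046512-6046570, plus strand: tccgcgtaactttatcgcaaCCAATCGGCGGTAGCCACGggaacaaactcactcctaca

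CARE was present in 4 of the 34 genes (11.8%), against 1056 of all 27025 (3.91%), and these 4 are shown because 3 of them are targets of ATF4 and 1 also holds ERSE-II. The CARE is in capitals, read on the strand on which TGATG comes first.
Asns, chr6:7693210-7693252, minus strand: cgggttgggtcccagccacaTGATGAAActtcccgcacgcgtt
Chac1, chr2:119351029-119351076, minus strand: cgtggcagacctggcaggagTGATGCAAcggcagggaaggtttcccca
Nupr1, chr7:126625553-126625600, plus strand: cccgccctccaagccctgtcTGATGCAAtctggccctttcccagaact

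Herpud1 was the gene with both elements, and its whole window is printed in the direction of the gene, with the CARE (here as its reverse complement) and then the ERSE-II in capitals.
Herpud1, chr8:94386179-94386428, plus strand: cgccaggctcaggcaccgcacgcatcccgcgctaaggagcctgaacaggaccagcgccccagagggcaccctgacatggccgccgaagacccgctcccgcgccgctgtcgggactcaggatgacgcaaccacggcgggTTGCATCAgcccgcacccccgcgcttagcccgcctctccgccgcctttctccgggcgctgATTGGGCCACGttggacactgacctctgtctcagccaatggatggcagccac

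ERSE-II was found in Herpud1 alone among the 34 genes and in 10 of all 27025 (0.037%), and the UPRE in 0 of the 34 and in 163 of all (0.603%). No 2 matches in these promoters overlapped. With the 50 bases after the start included, a count added after the data were seen, ERSE-II was also found in Dnajb11 and CARE in Trib3. A match is a description of the letters, and a gene without one may hold the element outside this window or in another spelling.

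On the arrays the stress response genes did not differ in 1 direction. Above 0 were 19 of the 38 genes and below it the other 19, and their median log2 difference was 0.00, beside -0.07 for all 14351 genes measured on both arrays. Of those 14351 genes, 6424 were above 0 and 7927 below it. At least 2-fold higher on the Jam3-null array were 5 genes, Nupr1, Wfs1, Dnajb9, Xbp1 and Ddit3, or 5 of 38 where 10.3% of all measured genes were. At least 2-fold lower was 1 gene, Calr, where 8.63% of all measured genes were. The share of higher genes is near the background and that of lower genes is below it, and with 38 genes and no replicates neither count is read as particular to the group. The interquartile range of the differences was 0.79 in log2 for the 38 genes and 0.87 for all genes. These are bulk samples, in which fewer cells of a type and less RNA per cell cannot be told apart, and all 11 neutrophil markers described further on were at least 2-fold higher in Jam3-null cells.

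**Figure D1:**
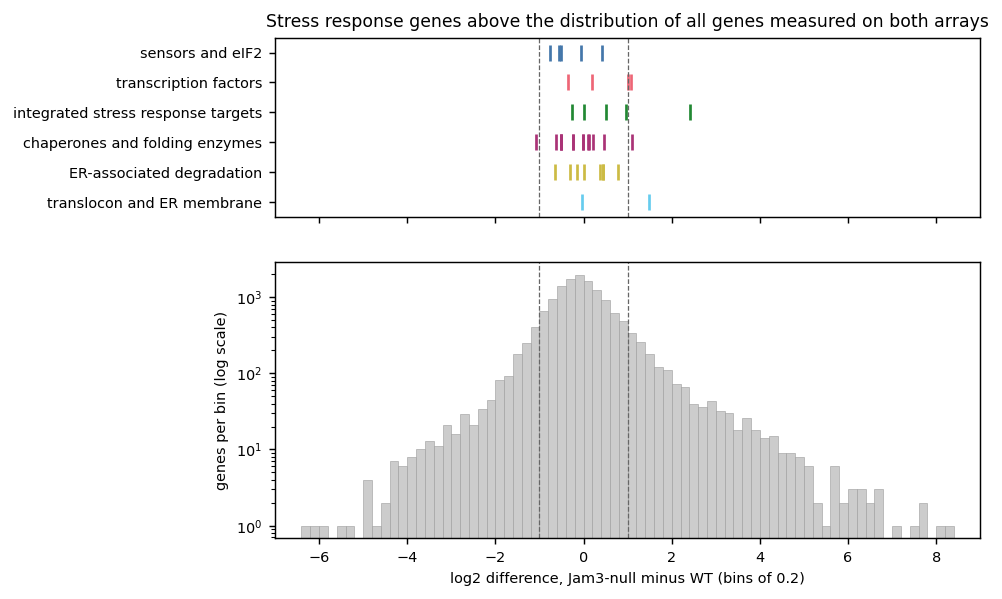
Upper panel: each tick is the log2 difference (Jam3-null minus WT) of 1 stress response gene measured on both arrays, in rows by role. Lower panel: number of genes per bin of 0.2 in log2 (log axis) among all 14351 genes measured on both arrays; dashed lines mark 2-fold. The 38 ticks lie between -1.08 and 2.43, inside the range of all genes.

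At a lower threshold, 7 of the 38 genes were at least 1.5-fold higher, where 18.5% of all genes were, and 4 at least 1.5-fold lower, where 20.3% of all genes were. Past 3-fold, 1 gene was higher (4.96% of all genes) and 0 were lower (2.94% of all genes). The genes that just reached 2-fold were Ddit3, with a log2 difference of 1.0, Xbp1, with 1.06, Dnajb9, with 1.10, and on the lower side Calr, with -1.08. Just short of it was Ppp1r15a, with 0.97. Each of these values lies within 1 error-model SD of the 2-fold line.

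**Figure D2:**
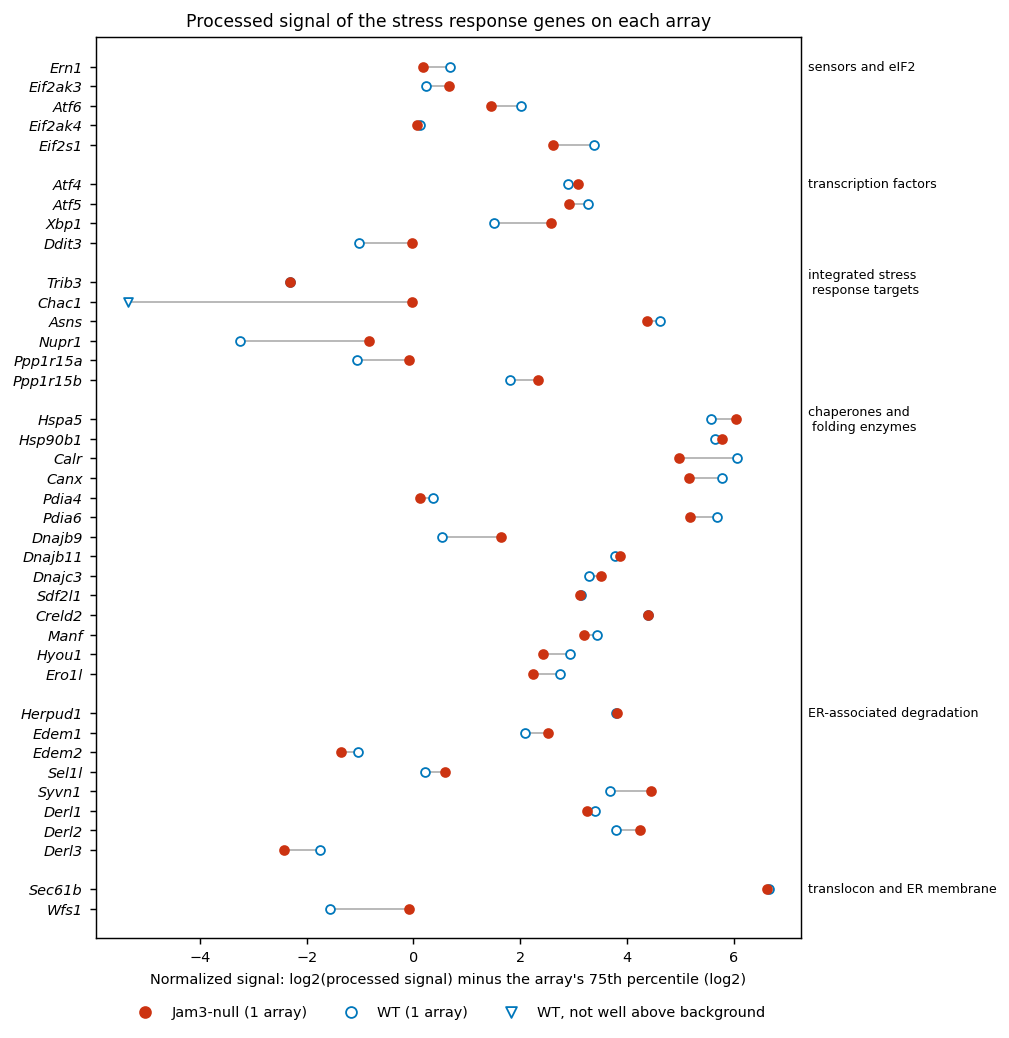
Normalized signal of each stress response gene (log2 processed signal, with the 75th percentile of its array taken off) on the Jam3-null array (filled) and the WT array (open), in rows by role; signals of different genes come from different probes and are not comparable between rows. The widest gaps are those of Chac1, whose WT signal was not well above background, and Nupr1.

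The sensors were lower or level, except PERK. Ern1 had a signal of 755.6 in Jam3-null cells and 1152 in WT cells, a log2 difference of -0.51 (error-model SD 0.20). Atf6 had 1836 in Jam3-null cells and 2888 in WT cells, a difference of -0.56, and its other probe was also lower, at -0.91. Eif2ak3 was the exception, with 1052 in Jam3-null cells and 845.8 in WT cells, a difference of 0.41 that its other probe matched (0.45). Thus the messages of the 3 ER sensors did not share a direction.

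Eif2s1, which encodes the eIF2 subunit that the stress kinases phosphorylate, had 4091 in Jam3-null cells and 7415 in WT cells. Its difference of -0.76, with -0.89 at the other probe, was the lowest in this role. Eif2ak4 had a difference of -0.06, smaller than its SD, and its 3 probes went both ways (-0.19 to 0.57). None of the 5 genes differed by 2-fold, and their median was -0.51.

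Of the 4 transcription factors of the response, 2 were at least 2-fold higher, where 10.3% of all measured genes were. Of the 2, Ddit3 lay on the 2-fold line itself. With 4 genes, each read by 1 probe, the count is not read as particular to this role. Xbp1 was read at 3980 in Jam3-null cells and 2034 in WT cells, by a probe at chromosome 11, 5424970 to 5425029 (mm9, the build of the array files). That is 2.09-fold higher, a log2 difference of 1.06 (error-model SD 0.20) at the 90.6th percentile of all measured genes. The array has 1 Xbp1 probe, and its single value gives no share of spliced message.

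Ddit3 encodes CHOP, a C/EBP-family factor that acts late in the response and favours cell death. It had 653.7 in Jam3-null cells and 349.3 in WT cells, a log2 difference of 1.0. The upstream factor of this branch differed less, since Atf4 had 5664 in Jam3-null cells and 5305 in WT cells, a difference of 0.19. Atf5, a related factor with the same kind of translational control, was lower, with 5064 in Jam3-null cells, 6900 in WT cells and a difference of -0.35. So the differences of the factors ran from -0.35 to 1.06, and that of Atf4 mRNA was within 1 SD of 0; the level of ATF4 protein was not measured.

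The targets of the integrated stress response held the widest differences of the list. Chac1 encodes an enzyme that degrades glutathione and is a sensitive target of ATF4. Its signal was 657.1 in Jam3-null cells, well above background, and 17.4 in WT cells, not well above it. Against this dim WT signal, its probe (chromosome 2, 119179990 to 119180049, mm9) was 40.4-fold higher in Jam3-null cells. That is 5.34 in log2, called a bound here, with an error-model SD of 0.43. For this bound the WT level is the higher of the probe's own signal and the lowest signal well above background on that array. For Chac1 it was the probe's own signal, so the bound is not a firm lower limit. After normexp background correction the bound was 3.0 in log2.

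Nupr1, a small nuclear protein of the stress response, had 373.3 in Jam3-null cells and 74.3 in WT cells, a log2 difference of 2.43 (error-model SD 0.22), or 1.72 after normexp correction. Ppp1r15a, which encodes GADD34, the stress-induced subunit that brings a phosphatase to eIF2 alpha, had 626.7 in Jam3-null cells and 341.2 in WT cells, a difference of 0.97. Ppp1r15b, which encodes the constitutive subunit of the same kind, had a difference of 0.51, with both of its probes higher. Both phosphatase subunits were therefore higher, by less than 2-fold.

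Other targets of ATF4 had smaller differences than Chac1 and Nupr1. Asns, which encodes asparagine synthetase, had 13910 in Jam3-null cells and 17720 in WT cells, a log2 difference of -0.25. Trib3, a pseudokinase that dampens the response, was dim, with 134.6 in Jam3-null cells and 143.1 in WT cells, and its difference of 0.01 was far within the SD. The 3 genes with a CARE shown on their own above thus ran from Chac1, with its bound of 5.34, through Nupr1 at 2.43 to Asns at -0.25. Over all genes with a CARE in this window, 225 were measured on both arrays, with a median of -0.01. By 2-fold or more 30 of these were higher and 19 lower, where 10.3% and 8.63% of all measured genes were.

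**Figure D3:**
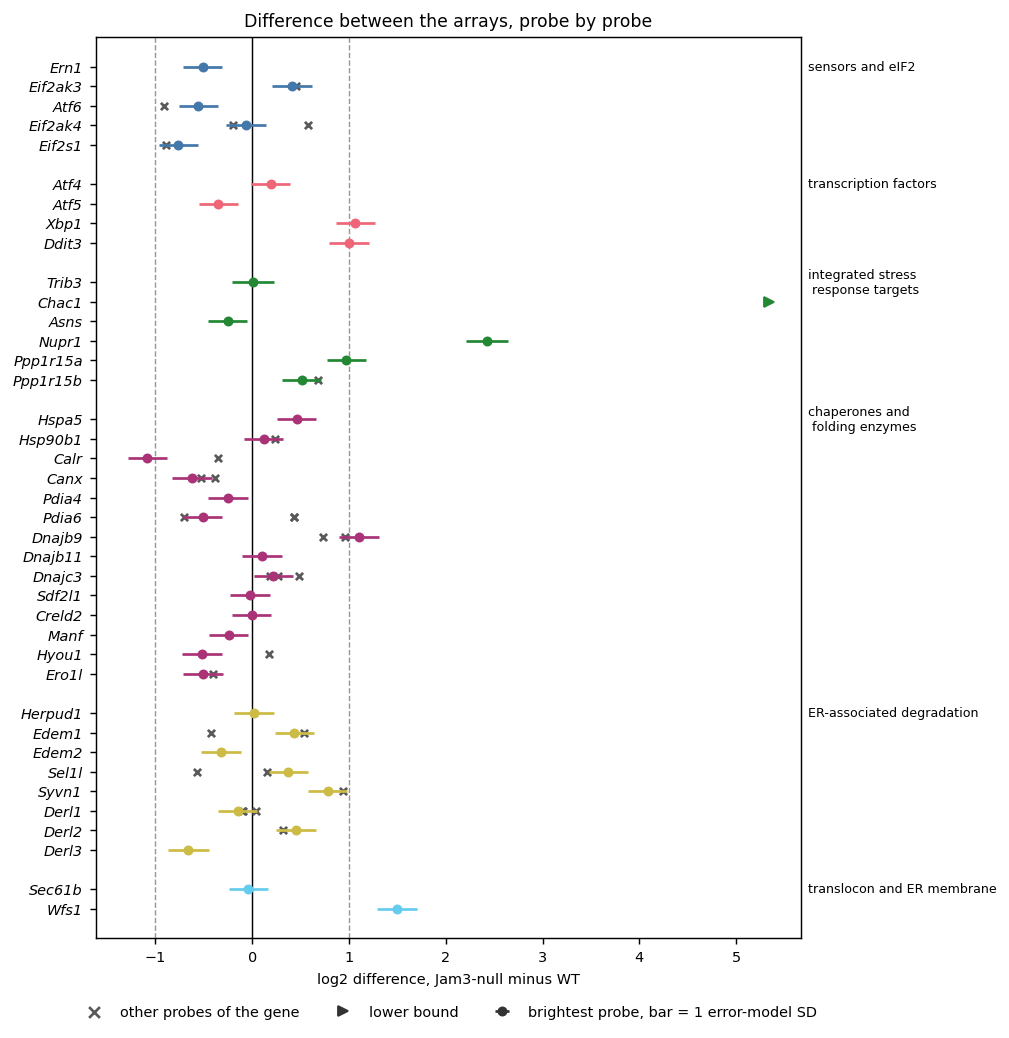
Log2 difference (Jam3-null minus WT) of each stress response gene, in rows by role: dots are the brightest probe with 1 error-model SD, and crosses the gene's other probes that were well above background on both arrays. The triangle, drawn as a lower bound, is the value of Chac1 against its dim WT signal. Dashed lines mark 2-fold; Nupr1, Wfs1, Dnajb9, Xbp1 and Ddit3 reach the right one and Calr the left one.

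The 14 chaperones and folding enzymes of the ER had a median of -0.13, with 5 above 0 and 9 below it. Past 2-fold was 1 in each direction, where 10.3% of all measured genes were higher and 8.63% lower. Hspa5, which encodes BiP, the main ER chaperone and the usual readout of the response, had 44010 in Jam3-null cells and 34240 in WT cells. Its log2 difference was 0.46, or 1.37-fold, at the 77.5th percentile of all measured genes. Hsp90b1, the ER form of HSP90, differed by 0.12, with 36590 in Jam3-null cells and 36010 in WT cells. The pair that loads and releases glycoproteins went the other way.

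Calr, which encodes calreticulin, a calcium-binding chaperone of glycoproteins, had 21120 in Jam3-null cells and 47860 in WT cells. That is 2.12-fold lower on the Jam3-null array, a difference of -1.08, while the second, dimmer probe was at -0.35. Canx, the membrane-bound relative calnexin, had 24040 in Jam3-null cells and 39520 in WT cells, a difference of -0.62, and all 3 of its probes were lower (-0.62 to -0.39). Calr and Canx were thus lower at every probe, by sizes that differed between the probes.

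The J-domain partners of BiP differed in size. Dnajb9 encodes ERdj4, a target of XBP1 that helps clear misfolded proteins and restrains IRE1. It had 2090 in Jam3-null cells and 1041 in WT cells, a difference of 1.10, and its 3 probes lay between 0.73 and 1.10. Dnajc3, which encodes p58IPK, differed by 0.22, with all 4 probes higher (0.18 to 0.48), and Dnajb11, which encodes ERdj3, by 0.10. Of these 3 genes Dnajb9 alone passed 2-fold.

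Among the disulphide and folding enzymes, Pdia6 was at -0.51, Ero1l, the oxidase that renews them, at -0.51, and Pdia4 at -0.25. Pdia6 is uncertain, since 2 of its 4 probes were lower and 2 higher (-0.71 to 0.43). Hyou1, a large HSP70-like exchange factor of BiP, was at -0.52 with its dimmer probe at 0.17. Manf, a secreted ER stress protein, was at -0.24. Creld2 and Sdf2l1, small soluble ER proteins known as strong targets of the response, were level, at -0.01 and -0.02.

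The ERSE in the promoter did not go with 1 direction on the arrays. Of the 9 genes shown with it, 4 were above 0 and 5 below it, from Calr at -1.08 to Syvn1 at 0.78, with a median of -0.01. The 24 measured genes with a promoter sequence and no ERSE had a median of 0.06. All 5 genes at least 2-fold higher were among them, where 10.3% of all measured genes were that much higher. With so few genes, 0 of 9 with the element is not read as tied to it. Of the 26 other genes in the genome with an ERSE in this window, 6 were measured on both arrays, with a median of 0.06. Of these 6, 2 were at least 2-fold higher, where 10.3% of all measured genes were: Acacb at 2.66 and Calr4 at 2.16. Both had a dim WT signal, 38.8 for Acacb and 18.2 for Calr4. The others, Hnrnpa3, Olfr59, Alg12 and Pan2, ran from -0.385 to 0.097. All 6 are named after their values were seen.

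In ER-associated degradation, which pulls misfolded proteins out of the ER for the proteasome, the ubiquitin ligase stood highest. Syvn1, which encodes the ligase HRD1, had 14640 in Jam3-null cells and 9121 in WT cells, a log2 difference of 0.78 with 0.93 at its dimmer probe. Sel1l, its partner, was at 0.37, but its 3 probes ran from -0.57 to 0.37 and their mean was -0.01. Edem1, a lectin that hands over misfolded glycoproteins, was at 0.43 with 2 probes higher and 1 lower, and its relative Edem2 was at -0.32. Thus the ligase was higher at both of its probes, whereas the probes of its partner differed in sign.

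The derlins, which help form the channel for export, went both ways. Derl2 had 12600 in Jam3-null cells and 9858 in WT cells, a difference of 0.45. Derl1 was at -0.15, within the SD, and Derl3 was at -0.66 with a dim signal of 124.7 in Jam3-null cells and 210.6 in WT cells. Herpud1, the gene with both a CARE and an ERSE-II, was level at 0.02, with 9401 in Jam3-null cells and 9934 in WT cells. No gene of these 8 passed 2-fold, and their median was 0.19.

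The last genes sit in the ER membrane. Sec61b, a subunit of the channel through which proteins enter the ER, was level, with 65490 in Jam3-null cells, 72030 in WT cells and a difference of -0.04. Wfs1 encodes wolframin, an ER membrane protein that restrains ATF6 in insulin-producing cells. It had 631.8 in Jam3-null cells and 239.9 in WT cells, a difference of 1.49 (error-model SD 0.21) at the 94.5th percentile of all measured genes. After Nupr1 this was the highest value among the 38 genes, read by 1 probe at chromosome 5, 37357424 to 37357483 (mm9).

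Of the 38 genes, 18 had several probes measured on both arrays, and in 12 of these the probes had 1 sign. In the other 6, Eif2ak4, Pdia6, Hyou1, Edem1, Sel1l and Derl1, probes went both ways. The remaining 20 genes rest on 1 probe each, among them Xbp1, Ddit3, Nupr1 and Wfs1, and so does Chac1. For 4 genes (Ddit3, Dnajc3, Ero1l and Sec61b) the chosen probe covers more genome than its own length, so it crosses a gap in the genome.

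The wider pathway was described with 6 lists of genes that are not among the 39, chosen with earlier results of these data known. Of 119 such genes, 35 were measured above 0 and 72 below it, with a median of -0.19, and 10 were higher and 11 lower by 2-fold or more. Of 22 other ER folding and glycan enzymes 17 were below 0, with a median of -0.35, and past 2-fold were 5, each of them lower. Among them were Mzb1, a chaperone of antibody-making cells that is also in the plasma cell list, at -5.47, and the disulphide enzymes Txndc5 at -2.02 and Dnajc10 at -1.45.

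Of 22 other ER translocation genes 20 were below 0, with a median of -0.33. At least 2-fold lower was 1, where 8.63% of all measured genes were, namely Srp68 of the signal recognition particle, at -1.09. Ssr2, a subunit of the translocon-associated complex, was at -0.97 and Srprb, of the receptor for the particle, at -0.50. The 20 measured genes of other ER-associated degradation had a median of -0.14 and 0 past 2-fold, with the lectin Erlec1 at -0.87, the ATPase Vcp at -0.72 and the conjugating enzyme Ube2j2 at -0.60. All 3 medians were lower than that of all genes, -0.07. The median of the 7175 brighter genes was -0.15, however, and that of the degradation list was not below it. The list medians are given only with the scaling as reported.

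Of 13 measured genes of translation control by eIF2, 9 were below 0 and 4 above it, with a median of -0.61. Past 2-fold were 3 lower (8.63% of all genes) and 1 higher (10.3% of all genes). Impact, which restrains GCN2, was at -1.78, Eif2a, an initiation factor, at -1.11, and the adaptor Nck1 at 1.87. The list of other transducers and regulators had a median of 0.04 over 18 genes. By 2-fold or more 3 of these were higher (10.3% of all genes) and 1 lower (8.63% of all genes). With genes seen on 1 array at their bound, where one can be given, the median was -0.06. The list held the calcium channel Itpr2 at 2.47, Creb3l2, a relative of ATF6, at 1.29, and Rtcb (D10Wsu52e in the array files), the ligase that joins the Xbp1 exons, at -1.16.

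Of the 6 pathway lists, that of stress-induced transcription factors and other targets of ATF4 had the highest median, 1.02. By 2-fold or more 6 of its 12 measured genes were higher, where 10.3% of all genes were, and 1 was lower, where 8.63% of all genes were. Since the list was chosen with earlier results known, these counts are not read as particular to it. Ddit4, an inhibitor of mTORC1, had 5965 in Jam3-null cells and 1362 in WT cells, a log2 difference of 2.23. Atf3 was at 2.19 and Cebpb at 1.8, both transcription factors. The following genes of the list are named after their values were seen. Gpt2, an alanine aminotransferase, was at -1.72 and Gdf15, a secreted target of ATF4 and CHOP, at -0.07. Vldlr was well above background in Jam3-null cells alone (bound 3.15), Stc2 in WT cells alone (bound -2.52) and Tnfrsf10b in WT cells alone (bound -1.12). The median of the list including these 3 was 0.96.

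**Figure D4:**
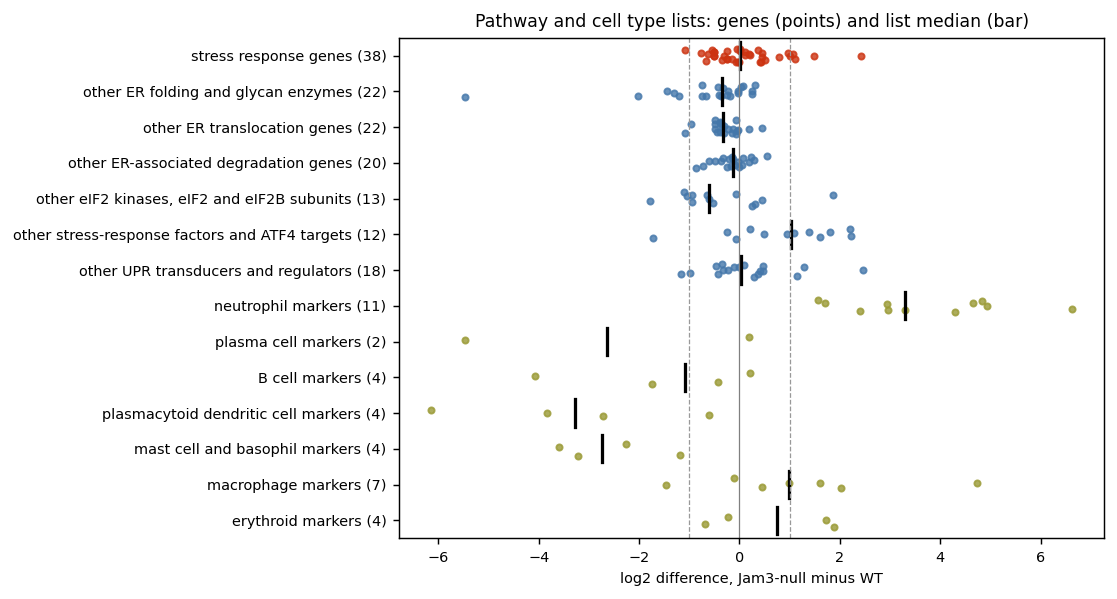
Log2 difference (Jam3-null minus WT) of the genes measured on both arrays in each list (points), with the list median (bar) and the number of genes in brackets: the stress response genes on top, then 6 lists of other pathway genes and 7 lists of cell type markers. Medians of the pathway lists lie between -0.61 and 1.02, and that of the neutrophil markers at 3.30.

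Several of these genes, Cebpb and Atf3 among them, are also expressed in maturing or activated myeloid cells, and markers of such cells differed between the arrays. All 11 neutrophil markers were at least 2-fold higher on the Jam3-null array, with a median of 3.30, led by Fcnb at 6.63, Camp at 4.92 and Ngp at 4.83. Their summed signal was 1020000 in Jam3-null cells and 177600 in WT cells. Of 8 macrophage markers 7 were measured, with a median of 0.99, a summed signal of 7933 in Jam3-null cells and 1627 in WT cells, and Vcam1 at 4.73, Emr1 at 2.03 and C1qc at 1.61. Of these 7 markers 5 were above 0 and 2 below it, Cd163 at -1.47 and Marco at -0.10, both named after their values were seen.

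Markers of plasma cells did not share a direction. Of 7 plasma cell markers 2 were measured on both arrays, Igj at 0.18 and Mzb1 at -5.47, with a summed signal of 2170 in Jam3-null cells and 5073 in WT cells. Sdc1 was well above background in Jam3-null cells alone (bound 1.28) and Slamf7 in WT cells alone (bound -0.11), both named after their values were seen. With these 2 at their bound the median of the plasma cell markers was 0.04, against -2.64 over the 2 measured on both arrays. The defining genes Prdm1, Irf4 and Tnfrsf17 were near background on both arrays. Of 7 plasmacytoid dendritic cell markers 4 were measured, with a median of -3.29 and a summed signal of 3702 in Jam3-null cells and 28870 in WT cells, led by Cox6a2 at -6.15, Pacsin1 at -3.85 and Tcf4 at -2.72, while Siglech was near background on both arrays. Mast cell and basophil markers had 4 of 9 measured, a median of -2.74 and a summed signal of 5250 in Jam3-null cells and 30260 in WT cells, with Cpa3 at -3.60, Gata2 at -3.21 and Hdc at -2.26. With those seen on 1 array at their bound, where one can be given, the median of the mast cell and basophil markers was -1.89.

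Of 8 B cell markers 4 were measured, with a median of -1.09, a summed signal of 7998 in Jam3-null cells and 13590 in WT cells, and Vpreb1 at -4.08, Vpreb3 at -1.75 and Cd79b at -0.44. With the B cell markers seen on 1 array at their bound the median was -0.43. Pax5 and Cd79a were near background on both arrays. Of 8 erythroid markers 4 were measured, with a median of 0.75, a summed signal of 1875 in Jam3-null cells and 694.2 in WT cells, and Hbb-b1 at 1.88, Hba-a1 at 1.73 and Slc4a1 at -0.69. With the erythroid markers seen on 1 array at their bound the median was -0.01, so the 4 measured on both arrays give no direction for the list. The part of these cell types in the differences of Xbp1, Ddit3, Nupr1, Chac1, Wfs1, Calr and the other genes above was not tested.

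**Figure D5:**
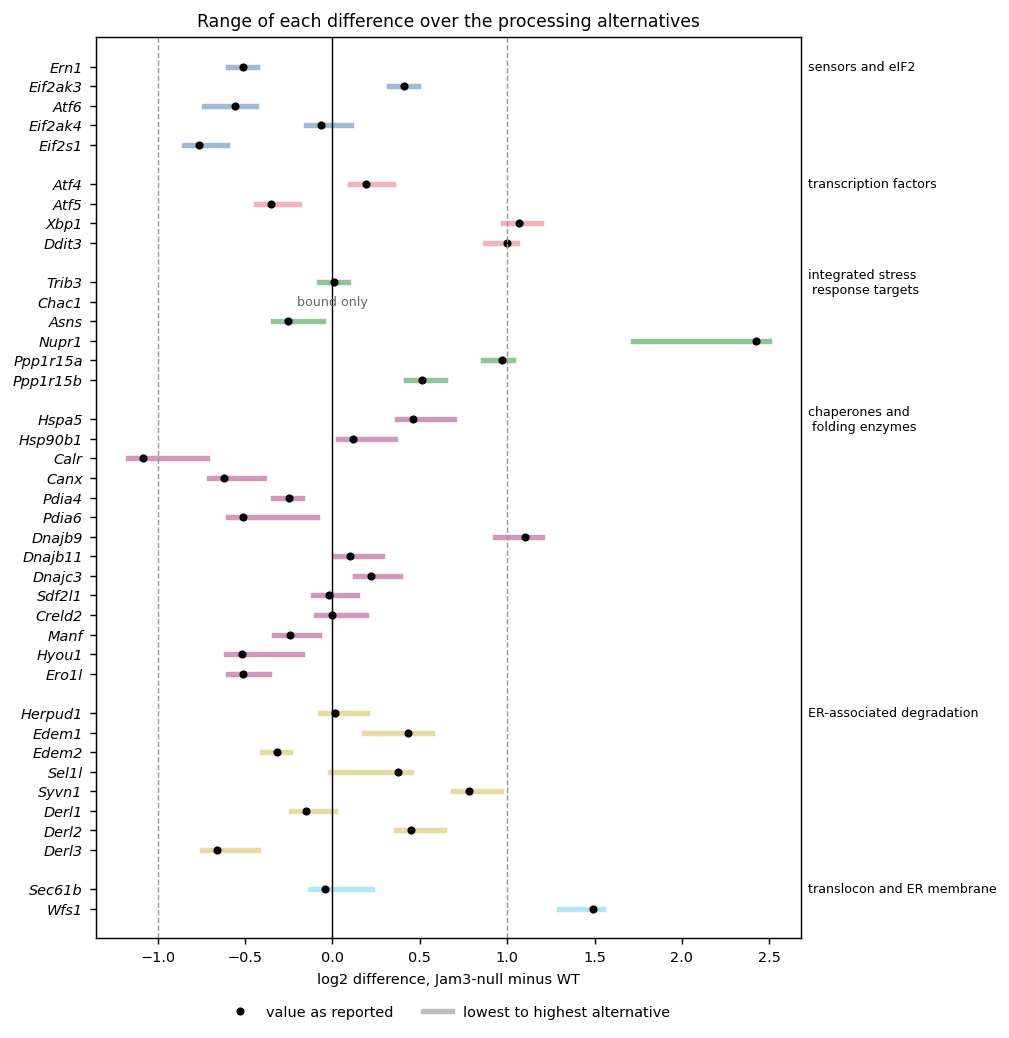
Log2 difference (Jam3-null minus WT) of each stress response gene as reported (dot) and its range over up to 10 processing alternatives (bar), in rows by role; dashed lines mark 2-fold. Nupr1 and Wfs1 stay right of the 2-fold line, while the bars of Xbp1, Ddit3, Dnajb9, Ppp1r15a and Calr cross a 2-fold line.

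Over the alternatives, the sign of 30 of the 38 genes was the same throughout, 16 of them higher and 14 lower. The other 8 were Eif2ak4, Trib3, Creld2, Sdf2l1, Herpud1, Sel1l, Derl1 and Sec61b, and of these Sel1l alone differed by more than its SD in the values reported above. Nupr1 and Wfs1 passed 2-fold in all 9 alternatives in which they were measured. Xbp1 passed it in 9 of 10 and Dnajb9 in 9 of 10. Ddit3 passed it in 4 of 9, and Calr in 6 of 10. These counts include alternatives that left a value as it was: no filter, the brighter genes and probes by accession. The mean of probes also left it for genes with 1 measured probe. For Ddit3, cyclic loess (1.06) was the only alternative that changed the value and kept it past 2-fold.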

How the data were processed

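RNA of the sorted cells was amplified, labelled with Cy3 and hybridized to 2 one-colour arrays, 1 per genotype, per the labels' protocols. Per the file headers, the deposited intensities come from Agilent Feature Extraction (10.7.3.1), which subtracted background and detrended within each array, and the submitters' processing notes give 10.7. The authors' value table, used as an alternative only, has log2 values with a median of 5.66 in both columns, and no source states how it was normalized between arrays. Both arrays share 1 scan, per the file headers.

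Spots flagged as outliers were dropped (151 for Jam3-null and 163 for WT, of which 0 belong to the 39 genes). Saturated non-control spots numbered 0. From each log2 processed signal the array's 75th percentile (667.8 for Jam3-null, 713.9 for WT) was taken off. Spots of a probe were averaged, and a gene name took its probe with the highest mean signal. A gene counted as measured where that probe exceeded background well on both arrays. A gene seen on 1 array has a bound, against the higher of the dim probe's signal and the lowest signal well above background there. Where the dim probe's own signal is the higher, the bound is a ratio to a dim signal and not a firm limit. Bounds that ran against the measured direction entered list medians at first and were removed after the list values were seen, which changed no value of the 39 genes.

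The error of a log2 difference over 127 probes printed in repeat spots was computed in 2 ways. The SD of paired spot differences had a median of 0.042, and the SD combined from each array's own spots 0.087. The larger was preferred after both had been seen, and no result uses either, since the text gives the scanner's error-model SD.

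The members and lists were chosen with earlier results of these data known. All 39 genes are named, and of each other list the 3 measured genes with the largest absolute difference. Promoter windows are RefSeq's (GRCm38.p6), while probe coordinates are those of the array files (mm9). The motif search departs from its plan in 2 ways: it used the 250 bases before the start instead of the window of 300 bases, and it left off the last, free base of the CARE. With that base, CARE was in 4 of 34 genes and 1052 of 27025 in all. In the window of 300 bases it was in 5 and 1215 with that base, and in 5 and 1219 without it. ERSE was then in 9 and 37, ERSE-II in 2 and 12, and UPRE in 0 and 193. Both comparisons were added after seeing the data. The planned description of ER retention signals was not run, and proteins were not analysed here.

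The gene-level step was tested on simulated data. Alternatives were normexp (offset 50), median, quantile, cyclic loess and spike-in scaling (8 E1A probes), the authors' table, no filter, the brighter genes, the mean of a gene's probes, probes by accession, and thresholds of 1.5-fold and 3-fold. Software was Python 3.11.15 (numpy 2.4.6, pandas 2.3.3, matplotlib 3.10.9) and R 4.3.3 (limma 3.58.1).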

Additional observations from a re-analysis of the deposited data

How the results depend on the processing

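The median log2 difference of the stress response genes stayed between -0.09 with spike-in scaling and 0.19 with cyclic loess. The scalings moved the median of all genes too, to -0.16 with spike-in scaling and 0.06 with cyclic loess, against -0.07 as reported. Without a filter, over 27370 genes in place of 14351, it was 0.14. The count of 5 genes at least 2-fold higher was 3 with spike-in scaling, 2 among the 26 brighter genes and 1 at a 3-fold threshold, and between 4 and 7 under the other alternatives. The count of 1 gene at least 2-fold lower was 0 with quantile normalization, cyclic loess, the authors' value table, the mean of measured probes and a 3-fold threshold, and 4 at a 1.5-fold threshold. Over all genes, counts past 2-fold were 1479 higher with 1239 lower as reported, 1323 with 1501 under spike-in scaling, 1766 with 990 under cyclic loess, 2872 with 2939 among 27370 genes without a filter, and 565 with 610 among the 7175 brighter genes. Of 377 values of single genes under an alternative, 361 moved by less than the error-model SD, 16 by more, and 0 of the values past 2-fold changed sign. Many of the 361 were fixed in advance, since no filter, the brighter genes and probes by accession left a value as it was. So did the mean of probes for genes with 1 measured probe. Median and spike-in scaling shift every gene by the same amount, which is smaller than the SD. The count of 361 is therefore no measure of how firm the values are. The cause of the 16 larger moves was not tested, except that normexp adds an offset of 50 to every signal, which pulls dim genes such as Chac1 and Nupr1 towards 0 by construction. No paired analysis was possible because each genotype has 1 array. Brightness over background limits Chac1, Derl3, Trib3 and Nupr1 most.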
